A study of Mus musculus with 18 samples.

Results

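The 9 libraries described here are natural killer (NK) cells from mice whose Hif1a or Ahr alleles, or both, carried loxP sites, without the Cre recombinase that would delete them. They were taken by genotype label: all libraries of the flox groups, 9 of the 18 in the series. The lines were Hif1a Ahr flox (Hif1a fl/fl and Ahr fl/fl), Ahr flox (Ahr fl/fl) and Hif1a flox (Hif1a fl/fl), with 3 biological replicates each. Every culture was started from spleen and grown with recombinant human interleukin 2 (IL-2) at 1700 U/ml in 1% oxygen for 7 days. The labels name no age, sex or strain background and do not say how many mice went into a culture. The other 9 libraries, from Ncr1 iCre mice of the same lines (KO below), were used only as values beside named genes. None of the flox lines is a control of another, so the direction of each difference is stated with it. There was no culture in normal oxygen and none before culture, so levels are those of cells after IL-2 and 1% oxygen and not responses to either.

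NK cells are lymphocytes that kill infected or transformed cells. They store perforin, which opens the target's membrane, and granzymes, proteases that enter the target and set off its death, in secretory granules. IL-2 acts through a receptor whose beta chain is encoded by Il2rb and drives growth and granule filling. At low oxygen the transcription factor HIF-1, with the subunit encoded by Hif1a, is stabilised and activates genes of glucose uptake, glycolysis and lactate export. The aryl hydrocarbon receptor, encoded by Ahr, is a ligand-activated transcription factor that uses the same partner, Arnt.

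Each library held between 54731932 and 55732940 estimated counts, and between 24565 and 25669 genes had a value above 0. Levels are given as CPM, counts scaled to a fixed library total and adjusted between libraries by TMM factors. Since CPM grows with transcript length, levels of the highest genes are also compared per kilobase of annotated transcript, where stated. All other levels are plain CPM, so their order across genes also depends on length. In bulk RNA a lower value cannot be told apart from fewer cells of a type. The deposited values are counts per gene, and neither targeted gene is missing from KO cells at that level: Ahr had 90.7, 88.6 and 97.0 CPM in Ahr KO libraries, against 72.3, 76.1 and 77.2 CPM in Ahr flox libraries. Hif1a had 182.5, 146.6 and 210.5 CPM in Hif1a KO libraries, against 64.6, 59.1 and 56.2 CPM in Hif1a flox libraries. Counts summed over a whole gene therefore do not show a deletion of part of it, and the labels were not checked by them.

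The RNA of these cells was led by granzymes. Gzmb, which encodes granzyme B, had the highest mean CPM of all genes, 13796 over the 9 libraries, and the range over single libraries was 11818 to 16447 CPM. The translation factor gene Eef1a1 came next at 12816 CPM, followed by Gzmc at 11009 CPM and Gzma at 9603 CPM. Per kilobase, Gzmc (12314 CPM per kilobase), Gzma (10248) and Gzmb (9607) were the first 3 genes, ahead of Eef1a1 (7144). Gzmd (5263 CPM), Gzmg (2427 CPM) and Gzme (2116 CPM) were also among the 100 highest genes, and Gzmf reached 234.9 CPM. The granzyme genes Gzmk (2.26 CPM) and Gzmm (1.68 CPM) were near the level at which genes stop being counted as present here, 1 CPM. The 9 granzyme genes held 4.43% of all counts on average, from 4.05% to 4.86% in single libraries. Gzmd, Gzme and Gzmg share 37.8%, 39.3% and 28.8% of their 31-base words with another granzyme transcript, so the division of counts among them is uncertain. Gzmc shares 14.8%, Gzmf 19.0%, Gzmb 1.4% and Gzma none.

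**Figure D1:**
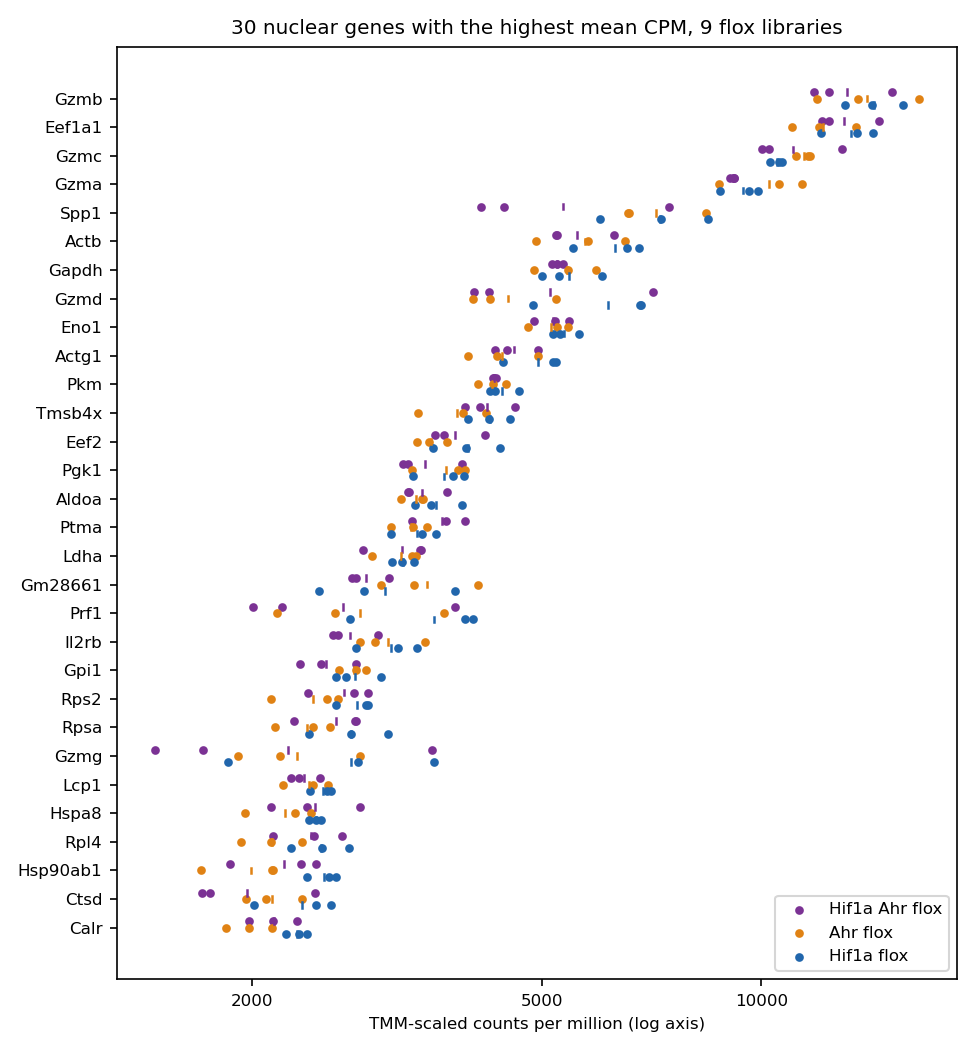
CPM (log axis) of the 30 nuclear genes with the highest mean, in the 3 Hif1a Ahr flox, 3 Ahr flox and 3 Hif1a flox libraries; points are libraries and ticks are the means of a line. Gzmb is at the top with a mean of 13796 CPM, and the points of the 3 lines overlap for genes such as Gzmb, Gzmd, Prf1 and Gzmg.

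The rest of the killing machinery was present at high levels. Prf1, which encodes perforin, had 2200, 3802 and 2008 CPM in Hif1a Ahr flox libraries, 2167, 3676 and 2602 CPM in Ahr flox libraries and 3917, 2729 and 4020 CPM in Hif1a flox libraries. Its values overlapped between all lines, and within each line replicates differed more than the means of the lines. All 16 genes of the cytotoxic effector list were at 1 CPM or more, and 12 were at 100 CPM or more. Srgn, the proteoglycan that packs granules, had 530.7 CPM. Serpinb9, an inhibitor that protects the killer cell from its own granzyme B, had 535.2 CPM. The death ligand genes Fasl and Tnfsf10 were lower, at 41.2 and 55.7 CPM. Of the genes that move and fuse granules, Rab27a had 248.1 CPM, Stxbp2 151.4 CPM and Unc13d 133.8 CPM, and all 12 listed members were above 1 CPM.

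Spp1, the gene of the secreted phosphoprotein osteopontin, was the most abundant transcript of a cytokine-like molecule. It had 4432, 7476 and 4121 CPM in Hif1a Ahr flox libraries, 6578, 8398 and 6559 CPM in Ahr flox libraries and 7286, 6015 and 8456 CPM in Hif1a flox libraries. The means were 5343 ± 1854, 7178 ± 1056 and 7252 ± 1221 CPM (SD, n = 3), and replicate 2 of the Hif1a Ahr flox line lay inside the range of the other lines. The difference was not called in any of the 3 comparisons (log2 -0.43 ± 0.23, adjusted p = 0.751, for Hif1a Ahr flox minus Ahr flox). All other genes of the cytokine and chemokine list were at 147.4 CPM or less. Xcl1 had 147.4 CPM, Flt3l 131.3 CPM, Ccl5 100.8 CPM and Ifng, the interferon gamma gene, 64.6 CPM. Tnf (7.26 CPM) and Csf2 (3.07 CPM) were low, and Il10 (0.091 CPM) and Areg (0.145 CPM) were under 1 CPM.

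Genes of glycolysis were also highly expressed. All 19 genes of the glycolysis and lactate list were above 1 CPM and 18 were at 100 CPM or more. Gapdh (5369 CPM), Eno1 (5233), Pkm (4328), Pgk1 (3608), Aldoa (3454), Ldha (3214) and Gpi1 (2687), enzymes of the glycolytic chain and, for Ldha, of lactate formation, were all among the 30 highest nuclear genes. Aldoa, which encodes fructose-bisphosphate aldolase A, had 3286, 3709 and 3272 CPM in Hif1a Ahr flox libraries, 3204, 3438 and 3426 CPM in Ahr flox libraries and 3519, 3350 and 3883 CPM in Hif1a flox libraries. Its lines overlapped, with log2 differences between -0.09 and 0.03. The glucose transporters Slc2a1 and Slc2a3 had 448.4 and 512.1 CPM, hexokinase 2 (Hk2) 215.7 CPM, and the lactate exporter Slc16a3 397.4 CPM. Only Pfkm, the muscle form of phosphofructokinase, was under 100 CPM, at 29.4 CPM, while the platelet form Pfkp had 741.9 CPM. The list held 3.40% of counts on average, within 3.30% to 3.54% in every library.

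Promoters of 3 of these abundant genes are shown because HIF-1 acts on glycolytic genes through a short motif. The sequences are from RefSeq (GRCm38.p6), 250 bases before to 50 after the annotated start, and the capitals mark ACGTG or GCGTG on either strand, the letters of the core HIF response element. CACGTG reads ACGTG on both strands and counts as 2 overlapping matches.
Ldha, chr7:46845554-46845853, plus strand: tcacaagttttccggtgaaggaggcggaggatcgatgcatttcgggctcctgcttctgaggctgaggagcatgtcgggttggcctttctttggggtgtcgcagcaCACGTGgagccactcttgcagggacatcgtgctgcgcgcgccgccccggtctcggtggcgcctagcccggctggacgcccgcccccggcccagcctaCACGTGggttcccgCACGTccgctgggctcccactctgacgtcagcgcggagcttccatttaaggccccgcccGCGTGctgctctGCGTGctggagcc
Pgk1, chrX:106186850-106187149, plus strand: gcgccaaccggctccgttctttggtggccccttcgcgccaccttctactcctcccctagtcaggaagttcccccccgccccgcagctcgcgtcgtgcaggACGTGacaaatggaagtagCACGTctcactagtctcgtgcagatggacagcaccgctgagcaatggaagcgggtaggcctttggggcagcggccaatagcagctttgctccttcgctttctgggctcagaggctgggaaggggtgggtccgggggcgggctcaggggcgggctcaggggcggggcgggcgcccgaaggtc
Aldoa, chr7:126799205-126799504, minus strand: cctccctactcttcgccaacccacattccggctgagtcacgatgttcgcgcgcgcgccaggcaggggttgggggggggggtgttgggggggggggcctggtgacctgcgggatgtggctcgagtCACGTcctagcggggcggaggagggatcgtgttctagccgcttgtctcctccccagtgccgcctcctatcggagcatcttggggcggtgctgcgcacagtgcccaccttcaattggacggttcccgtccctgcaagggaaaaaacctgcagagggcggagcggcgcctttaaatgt
These windows held 7, 2 and 1 matches. They are examples: a second annotated Ldha window held 2 matches, and other Aldoa windows held 0 and 1. Windows of other genes of the glycolysis list held from 0 matches, as for Gpi1 and Tpi1, to 5, as for Slc16a1. Over the 29 promoters in the table that belong to 18 genes of the glycolysis list, 79.3% held at least 1 match. For the 92 promoters of the 100 highest genes the share was 71.7%, and for all 32851 promoters 43.8%. Promoters of 1 gene can overlap, and a match describes letters, not binding. The 3 sets were not matched for base composition or expression, and the shares were not tested.

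HIF targets outside glycolysis were mostly well above 1 CPM, 24 of 25 genes, with 14 at 100 CPM or more. Bnip3, a mitophagy receptor, had 385.0 CPM, and Egln3, a prolyl hydroxylase that marks HIF subunits for decay, 319.5 CPM. Vegfa, the angiogenic growth factor, had 249.6 CPM. Pdk1, the kinase that closes pyruvate dehydrogenase, had 266.1 CPM. Car9, a carbonic anhydrase widely used as a marker of hypoxic tumour cells, was low at 7.42 CPM. Hif1a itself had 57.1, 58.5 and 61.3 CPM in Hif1a Ahr flox libraries, 58.3, 60.5 and 65.7 CPM in Ahr flox libraries and 64.6, 59.1 and 56.2 CPM in Hif1a flox libraries. It did not separate the lines. The related subunit gene Epas1 had 8.14 CPM and Arnt 48.7 CPM.

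Mitochondrial and anabolic genes were expressed beside glycolysis. The mitochondrial genome's mt-Co1, a subunit of cytochrome oxidase, had 8388 CPM, and the 37 mitochondrially encoded genes held 2.03% of counts. Gm28661, a nuclear gene at 3131 CPM, shares 100% of its words with mt-Co2, so its counts cannot be told apart from those of the mitochondrial gene. Of 21 nuclear genes of the respiratory chain 20 were above 1 CPM, such as Atp5b at 997.2 CPM, and the exception was Cox4i2 at 0.00768 CPM. All 14 TCA cycle genes and all 22 cholesterol synthesis genes passed 1 CPM, with Hmgcs1 at 749.9 CPM. Ribosomal protein genes, 84 of them, took 7.49% of counts. All 34 cell cycle genes were above 1 CPM and 22 were at 100 CPM or more, among them Top2a (617.4 CPM), Pcna (486.7 CPM) and the proliferation marker Mki67 (465.3 CPM).

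Receptors described the cells further. Il2rb had 2970 CPM, while Il2ra, the alpha chain that raises affinity for IL-2, had 41.5 CPM. All 16 NK identity genes were above 1 CPM and 13 at 100 CPM or more. Ncr1, the NKp46 receptor gene, had 116.3 CPM, Klrb1c, which encodes NK1.1, 504.6 CPM and the transcription factor gene Eomes 283.2 CPM. All 12 genes of the list of Ly49, NKG2 and related receptors were above 1 CPM. Klrd1, which encodes CD94, the partner chain of NKG2 receptors, had 379.1 CPM, and the Ly49 gene Klra7 242.5 CPM. The costimulatory receptor gene Tnfrsf9 (4-1BB) was at 1893 CPM, and Havcr2 (TIM-3) at 131.7 CPM, while Pdcd1 (PD-1) was at 0.0807 CPM. The chemokine receptor gene Ccr2 was high, at 726.0 CPM. Of the 17 genes of the homing and chemokine receptor list 14 reached 1 CPM and 8 reached 100 CPM (median 83.5 CPM), and low members were S1pr5 (2.88 CPM), Cx3cr1 (0.878 CPM) and S1pr1 (0.454 CPM). Of the 12 genes of the ILC1 and tissue residency list 4 reached 100 CPM (Rgs1, Kit, Itga1 and Cxcr6, at 396.2, 258.7, 216.1 and 111.6 CPM), and the median was 51.5 CPM. Interferon response genes were low for the most part, with 1 of 23 (Gbp4, 170.5 CPM) at 100 CPM or more.

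Many defining genes of other cell types were at or near 0, but not all members of their lists were. Pax5 averaged 0.00606 CPM, C1qa 0.00405 CPM and Hbb-bt 0.00376 CPM, and Col3a1 had no count in the 9 libraries. Of the B cell list 2 of 9 genes reached 1 CPM, led by Ighm (70.5 CPM), and of the plasma cell list 2 of 5, led by Xbp1 (212.4 CPM). Of the macrophage and monocyte list 4 of 10 did, led by Cd68 (34.8 CPM), and of the stroma and endothelium list 1 of 8, Pecam1 (283.0 CPM). The dendritic cell and class II list had 7 of 10, led by the integrin gene Itgax (196.6 CPM) and by H2-Ab1 (42.0 CPM), and its summed level was 190.4 to 266.1 CPM in Hif1a Ahr flox, 271.2 to 289.4 CPM in Ahr flox and 237.4 to 277.7 CPM in Hif1a flox libraries. The B cell list summed to 52.7 to 66.6 CPM in Hif1a Ahr flox, 77.0 to 88.9 CPM in Ahr flox and 70.9 to 86.2 CPM in Hif1a flox libraries. No erythroid gene of 7 reached 1 CPM. Among T cell genes, Cd3e averaged 1.55 CPM, Cd8a 1.26 CPM, Cd4 0.641 CPM and Cd5 0.0565 CPM, while Cd3g (69.6 CPM), Trbc1 (318.3 CPM) and Trdc (39.3 CPM) were higher; 11 of 14 reached 1 CPM. The summed level of the T cell list was 710.5 to 774.4 CPM in Hif1a Ahr flox libraries, 704.0 to 762.6 CPM in Ahr flox libraries and 699.7 to 784.2 CPM in Hif1a flox libraries. Cd3e had 2.82, 2.07 and 2.43 CPM in Hif1a Ahr flox libraries, 0.304, 0.225 and 0.501 CPM in Ahr flox libraries and 0.358, 3.24 and 1.99 CPM in Hif1a flox libraries, and no T cell gene was called. Neutrophil genes summed to 1.34 to 8.58 CPM in Hif1a Ahr flox, 0.806 to 2.17 CPM in Ahr flox and 1.76 to 8.86 CPM in Hif1a flox libraries. Of the mast cell and basophil list 3 of 8 genes reached 1 CPM. The 2 that reached 100 CPM were Kit, given above, and Mcpt8, a mast cell protease gene of basophils (125.7 CPM). Fcer1a (0.0102 CPM) and Ms4a2 (0.01 CPM) were near 0, and Mcpt4 and Tpsb2 had no count. The part of other cell types in the results below was not tested.

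**Figure D2:**
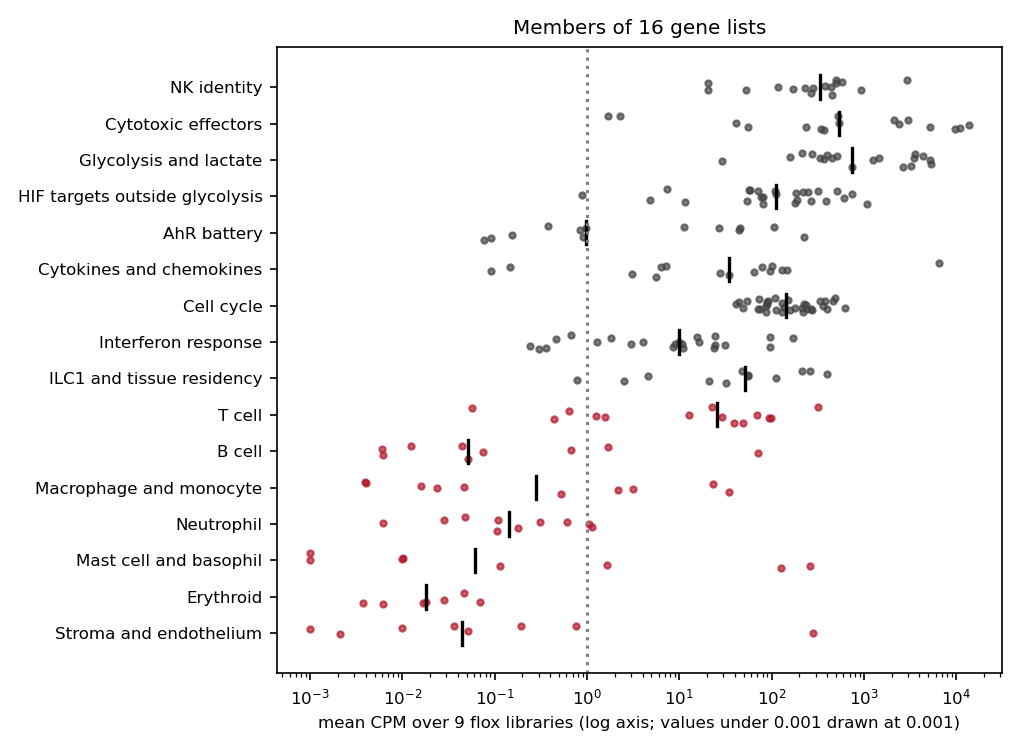
Mean CPM over the 9 flox libraries (log axis) for the members of 16 gene lists; each point is a gene, the black tick is the list's median and the dotted line is 1 CPM. Medians of the lists for cytotoxic effectors (533.0 CPM) and glycolysis (741.9 CPM) are far right of those for B cells (0.0510 CPM) and erythroid cells (0.0181 CPM).

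Across the 9 libraries 11947 genes had a mean of 1 CPM or more, 10886 of them protein coding, and 685 genes held 50% of the mean CPM. Of the 100 highest genes by the mean of the 9 libraries, 89 were in the top 100 of Hif1a Ahr KO, 93 in that of Ahr KO and 84 in that of Hif1a KO, against 97 in Hif1a Ahr flox, 96 in Ahr flox and 99 in Hif1a flox. In all 3 flox lines 92 of them were in the top 100. The ranking was made from the flox libraries alone, which favours overlap with the flox lines over the KO groups. The median ratio of highest to lowest library among the 100 genes was 1.37, and 3 genes exceeded a ratio of 2, led by Gzmg at 2.41.

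The lines were compared next, by edgeR's quasi-likelihood F tests over 15950 genes with Benjamini-Hochberg adjustment over all of them; a gene is called at an adjusted p under 0.05. The 3-line test called 30 genes, 0.188% of those tested. None of the 100 highest genes was among them by edgeR, DESeq2 or limma voom, and 0 of these had an unadjusted p under 0.05. In the pairwise tests none was called either, and unadjusted p-values under 0.05 numbered 5 for Hif1a Ahr flox minus Ahr flox, 1 for Hif1a Ahr flox minus Hif1a flox and 6 for Ahr flox minus Hif1a flox, against 7.03%, 3.67% and 5.75% of all tested genes. Hif1a Ahr flox minus Ahr flox gave 27 calls (0.169%), 17 higher (0.107%) and 10 lower (0.0627%). Hif1a Ahr flox minus Hif1a flox gave 4 (0.0251%), 1 higher (0.00627%) and 3 lower (0.0188%). Ahr flox minus Hif1a flox gave 24 (0.15%), 6 higher (0.0376%) and 18 lower (0.113%). The 3 contrasts share libraries with each other, so their counts are not independent. Counts without 1 library fell by over 1.5 times in these cases: Hif1a Ahr flox minus Ahr flox gave 17 without Ahr flox replicate 1 and 14 without replicate 3. Hif1a Ahr flox minus Hif1a flox gave 2 without Hif1a Ahr flox replicate 3, Ahr flox replicate 1, Ahr flox replicate 3 or Hif1a flox replicate 3. Same-numbered replicates of Hif1a Ahr flox and Ahr flox deviated together. Some unlike-numbered libraries of Hif1a Ahr flox and Hif1a flox did so as well (correlation up to 0.49), so the number is not shown to mark a pairing. With the number as a block in Hif1a Ahr flox and Ahr flox, their comparison gave 40 calls. The Ahr flox minus Hif1a flox comparison then gave 119 and the Hif1a Ahr flox minus Hif1a flox comparison 15. The median difference of genes of at least 1 CPM was 0.09, 0.08 and 0.08 on the log2 scale, in size, in the 3 comparisons in the order above. In 24 of 27 pathway lists no member was called by the 3-line test. Over all 27 lists it called 3 of 417 tested members, Ahr and mt-Nd3 among them, DESeq2 called 7, and 38 had an unadjusted p under 0.05. No difference in shares of counts passed its test: over 8 shares the exact permutation test over 3 lines of 3 gave no adjusted p under 0.768, and its smallest possible p is 0.00357.

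**Figure D3:**
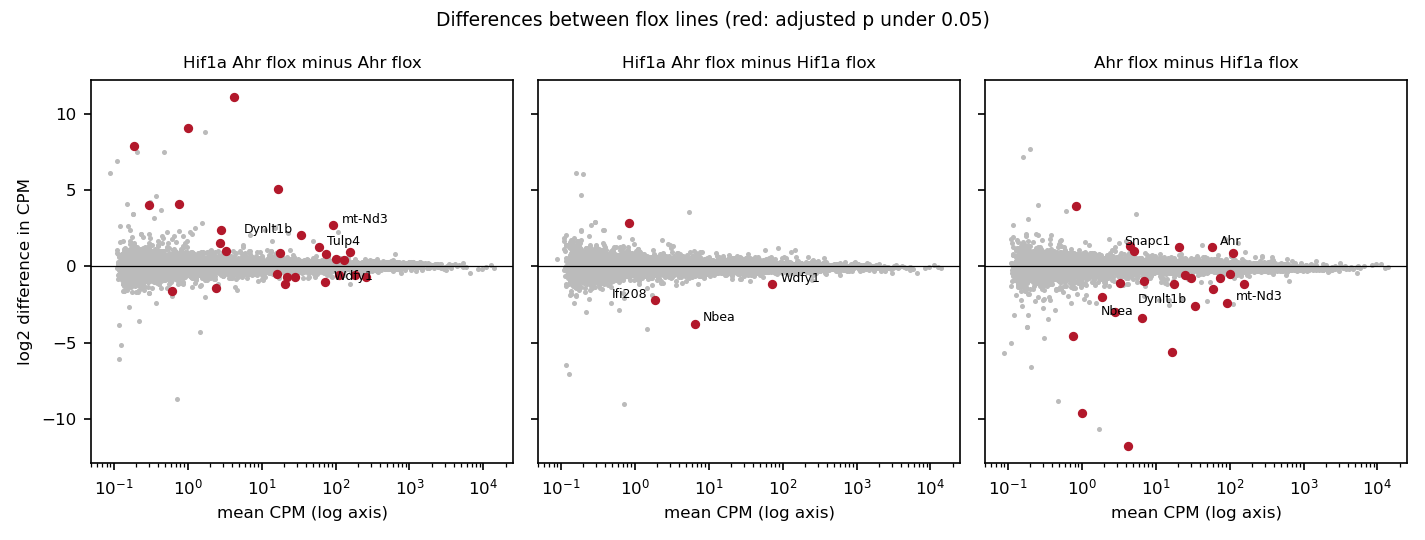
Log2 difference between flox lines against mean CPM (log axis), each point a tested gene; red points have an adjusted p under 0.05. In each panel the bulk of genes lies near 0, and the middle panel, Hif1a Ahr flox minus Hif1a flox, has 4 red points against 27 in the left and 24 in the right panel.

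The largest group of calls lay on chromosome 17, where Ahr flox stood apart from the other lines. Of 786 tested genes on this chromosome the 3-line test called 10, all within 29 consecutive tested genes near one end (order 13 to 41, gene order from the GRCm38 annotation). The stretch was bounded by these calls, so its counts are a description. Within this stretch 9 genes were called in Hif1a Ahr flox minus Ahr flox, 0 in Hif1a Ahr flox minus Hif1a flox and 10 in Ahr flox minus Hif1a flox. Unadjusted p-values under 0.05 covered 51.7%, 31% and 51.7% of its genes, against 7.03%, 3.67% and 5.75% of all tested genes. Dynlt1b, a dynein light chain gene, had 40.6, 35.7 and 38.6 CPM in Hif1a Ahr flox libraries, 9.43, 9.23 and 9.55 CPM in Ahr flox libraries and 52.8, 48.9 and 66.2 CPM in Hif1a flox libraries. No Ahr flox value came near those of the other lines, and the difference Ahr flox minus Hif1a flox was -2.57 ± 0.11 (adjusted p = 5.14e-07). Tulp4, a tubby-like protein gene, had 78.4, 61.6 and 62.9 CPM in Hif1a Ahr flox, 27.5, 28.8 and 30.1 CPM in Ahr flox and 80.8, 85.8 and 76.1 CPM in Hif1a flox libraries. Its Ahr flox values were again apart from those of the other lines (-1.49 ± 0.09 for Ahr flox minus Hif1a flox, adjusted p = 1.25e-05). Rnaset2b and Rnaset2a, copies of the gene of a lysosomal ribonuclease, went opposite ways: Rnaset2b averaged 173.9 CPM in Hif1a Ahr flox, 92.9 CPM in Ahr flox and 204.0 CPM in Hif1a flox, and Rnaset2a 101.1, 152.7 and 83.6 CPM in the lines as listed. For Ahr flox minus Hif1a flox the differences were -1.13 ± 0.07 for Rnaset2b (adjusted p = 6.43e-06) and 0.87 ± 0.09 for Rnaset2a (adjusted p = 0.00198). Rsph3b, a component of the radial spoke of cilia, was lower in Ahr flox, with 9.21 to 12.4 CPM, than in Hif1a flox, with 21.3 to 27.9 CPM (-1.15 ± 0.13, adjusted p = 0.00214). Zdhhc14, a palmitoyltransferase gene, was higher in Ahr flox, at 6.9, 6.81 and 6.8 CPM, than in Hif1a flox, at 2.99 to 4.23 CPM (0.99 ± 0.14, adjusted p = 0.0185), and lost the call without any 1 of 5 libraries: Ahr flox replicate 1 (0.109), 2 (0.0735) or 3 (0.118) and Hif1a flox replicate 1 (0.118) or 3 (0.122). Gm2808, chosen after its values were seen, had 3.85 to 6.56 CPM in Hif1a Ahr flox libraries, no estimated count in Ahr flox libraries and 7.33 to 8.33 CPM in Hif1a flox libraries. Of its words 95.9% occur in other transcripts, so an estimate of 0 sets no upper limit on its level.

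Copies limit what these genes measure. Of the 31-base words of Dynlt1b, 86.9% occur in transcripts of other genes, of Rnaset2a 86.1% and of Rsph3b 68.5%. For Rsph3b 58.5% occur in Rsph3a, which averaged 12.7 CPM in Hif1a Ahr flox, 15.0 CPM in Ahr flox and 13.1 CPM in Hif1a flox. Summed over Rnaset2b and Rnaset2a the means were 275.0 CPM in Hif1a Ahr flox, 245.6 CPM in Ahr flox and 287.6 CPM in Hif1a flox, which are closer together than those of either gene. Summed over Dynlt1b, Dynlt1a and Dynlt1c they were 54.6 CPM in Hif1a Ahr flox, 27.9 CPM in Ahr flox and 71.5 CPM in Hif1a flox, and every Ahr flox library was below every library of the other lines. Tulp4 with its partial copies Gm2808 and Gm2792 summed to 75.0 CPM in Hif1a Ahr flox, 30.1 CPM in Ahr flox and 92.1 CPM in Hif1a flox.

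**Figure D4:**
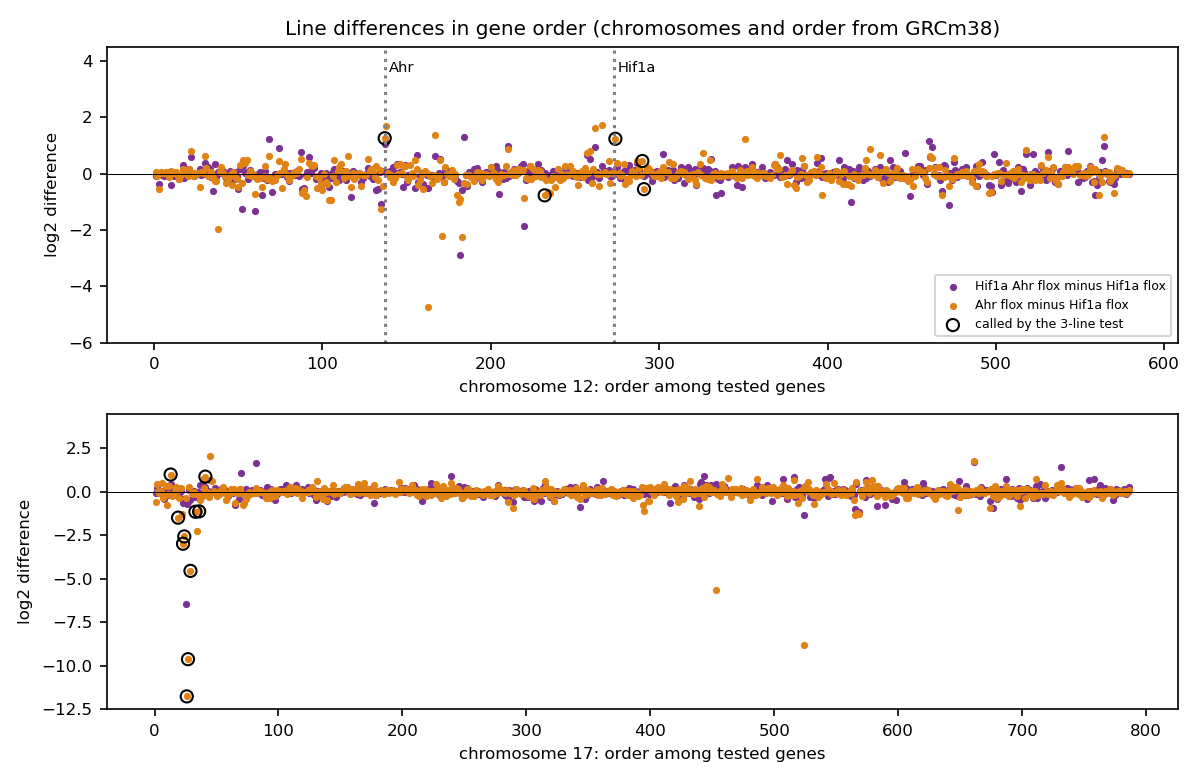
Log2 differences (Hif1a Ahr flox minus Hif1a flox, and Ahr flox minus Hif1a flox) of tested genes in gene order on chromosomes 12 and 17; circles mark genes called by the 3-line test and dotted lines mark Ahr and Hif1a. The 10 circles of chromosome 17 lie among its first 41 genes, and the 5 of chromosome 12 between order 137 and 291.

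Chromosome 12 carries both targeted genes and held 5 of the called genes among 579 tested, in order 137 (Ahr) to 291 (Fntb). That is 0.864%, against 0.188% of all tested genes. In the 155 tested genes between these ends, which the calls again set, unadjusted p-values under 0.05 covered 17.4% in Hif1a Ahr flox minus Ahr flox, 1.9% in Hif1a Ahr flox minus Hif1a flox and 19.4% in Ahr flox minus Hif1a flox, against the shares of all genes given above. Snapc1, a subunit of the complex that transcribes small nuclear RNA genes, is the tested gene next to Hif1a. It had 14.4, 15.8 and 13.9 CPM in Hif1a Ahr flox libraries, 33.6, 32.1 and 32.6 CPM in Ahr flox libraries and 12.9, 13.3 and 15.4 CPM in Hif1a flox libraries. All Ahr flox values were above those of the lines with a floxed Hif1a allele (-1.16 ± 0.09, adjusted p = 9.05e-05, for Hif1a Ahr flox minus Ahr flox). Klhdc2, a substrate receptor of a ubiquitin ligase, was lower in Ahr flox, with 84.6, 93.5 and 81.0 CPM in Hif1a Ahr flox, 48.4, 50.0 and 52.2 CPM in Ahr flox and 90.6, 80.8 and 85.2 CPM in Hif1a flox libraries. The neighbours Churc1 and Fntb differed by less than 1.5-fold and their transcripts share words. The called difference lay between Ahr flox and the other lines for Snapc1 and Klhdc2.

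Ahr itself was the exception to that pattern. It had 76.6, 52.0 and 67.6 CPM in Hif1a Ahr flox libraries, 72.3, 76.1 and 77.2 CPM in Ahr flox libraries and 27.6, 39.0 and 27.6 CPM in Hif1a flox libraries, whose label names no floxed Ahr allele. Hif1a flox values lay below those of all 6 other libraries. The difference Ahr flox minus Hif1a flox was 1.26 ± 0.16 (adjusted p = 0.0173), and Hif1a Ahr flox minus Hif1a flox was 1.06 ± 0.16 (adjusted p = 0.166, not called). The call was lost without Hif1a Ahr flox replicate 3 (0.0709), Ahr flox replicate 1 (0.109), 2 (0.0835) or 3 (0.0965), and Hif1a flox replicate 1 (0.0813) or 3 (0.0992). It was also lost with the replicate block shared by Hif1a Ahr flox and Ahr flox (0.0612), with the block in all lines (0.14) and with no filter on low counts (0.137). Hif1a Ahr flox minus Hif1a flox was instead called without Hif1a Ahr flox replicate 2 (adjusted p = 0.0173) or Hif1a flox replicate 2 (0.0195), by DESeq2 (1.81e-07) and with the level of Y-linked genes as a covariate (0.027). Genes that AhR is known to activate had medians of -0.02, 0.57 and 0.53 in the 3 comparisons (Hif1a Ahr flox minus Ahr flox, minus Hif1a flox, and Ahr flox minus Hif1a flox), against 0.01, 0.00 and -0.02 over all tested genes, and 0 of 10 tested members was called by edgeR in any of them. Unadjusted p-values under 0.05 numbered 0, 1 and 1, and DESeq2 called 0, 0 and 1. Only 6 of the 13 listed genes reached a mean of 1 CPM, and the median level of the list was 0.974 CPM. The medians of the differences therefore rest partly on genes at very low levels. Asb2, which encodes a ubiquitin ligase subunit, had 247.9, 192.7 and 306.3 CPM in Hif1a Ahr flox, 293.0, 215.9 and 251.5 CPM in Ahr flox and 158.7, 171.7 and 165.6 CPM in Hif1a flox libraries (0.62 ± 0.16 for Ahr flox minus Hif1a flox, adjusted p = 0.473). Its values in Hif1a flox libraries were below the other 6. Ahrr, the AhR repressor gene, overlapped between lines, with 46.7, 30.5 and 69.7 CPM in Hif1a Ahr flox, 66.4, 32.4 and 51.2 CPM in Ahr flox and 27.5, 44.3 and 28.9 CPM in Hif1a flox libraries.

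Single genes elsewhere separated 1 line. Nbea, which encodes the membrane traffic protein neurobeachin, was higher in Hif1a flox, with 1.5, 1.22 and 0.985 CPM in Hif1a Ahr flox, 1.74, 1.69 and 1.43 CPM in Ahr flox and 16.5, 14.7 and 18.9 CPM in Hif1a flox libraries. The difference Hif1a Ahr flox minus Hif1a flox was -3.76 ± 0.17 (adjusted p = 2.13e-06), and the call held under all 18 alternatives. Wdfy1, an adaptor of Toll-like receptor signalling, was lower in Hif1a Ahr flox, with 46.5, 36.6 and 40.6 CPM, against 82.1, 89.4 and 84.6 CPM in Ahr flox and 94.4, 85.8 and 94.2 CPM in Hif1a flox libraries (-1.15 ± 0.09 for Hif1a Ahr flox minus Hif1a flox, adjusted p = 0.000251). Ifi208, an interferon-inducible gene, was higher in Hif1a flox, at 3.22, 5.15 and 3.38 CPM against at most 1.12 CPM in every library of the other lines. Its call in Hif1a Ahr flox minus Hif1a flox (-2.21, adjusted p = 0.0227) was lost without Hif1a Ahr flox replicate 2 (0.0517) or 3 (0.211), Ahr flox replicate 1 (0.0585) or 3 (0.0662) or Hif1a flox replicate 2 (0.0709) or 3 (0.0898).

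Nnt, the mitochondrial transhydrogenase known to differ between C57BL/6 substrains, had 31.5, 25.4 and 32.6 CPM in Hif1a Ahr flox, 23.8, 23.2 and 21.4 CPM in Ahr flox and 39.6, 40.2 and 36.9 CPM in Hif1a flox libraries. Ahr flox was lower than Hif1a flox without overlap (-0.77 ± 0.09, adjusted p = 0.0046; adjusted p = 0.563 with all 18 libraries in the fit). Cdh1, the E-cadherin gene, was lower in Hif1a Ahr flox than in Ahr flox, at 186.6, 202.5 and 174.7 CPM against 275.3, 345.8 and 318.2 CPM (-0.74 ± 0.09, adjusted p = 0.00612). That call was lost with all 18 libraries in the fit (adjusted p = 0.548) and without Ahr flox replicate 3 (0.0507). Hgfac, the activator of hepatocyte growth factor, was also lower in Hif1a Ahr flox, at 20.6 to 22.1 CPM against 32 to 35.7 CPM in Ahr flox (-0.67 ± 0.07, adjusted p = 0.000915; 0.0619 with all 18 libraries).

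Further calls of Hif1a Ahr flox minus Ahr flox were less firm. Lif, a cytokine gene of the interleukin 6 family, had 4.58, 4.86 and 2.67 CPM in Hif1a Ahr flox and 1.45, 1.35 and 1.48 CPM in Ahr flox libraries (adjusted p = 0.0313). Apln, which encodes the peptide apelin, had 18.8, 16.4 and 17.8 CPM in Hif1a Ahr flox and 29.3, 25.2 and 31.1 CPM in Ahr flox libraries (adjusted p = 0.0196). Adss (adenylosuccinate synthase) and Rsph3b were called as higher, and Ide (insulin-degrading enzyme), Kctd15 and Rnaset2a as lower, in Hif1a Ahr flox. The call ended without any 1 of 7 libraries for Lif, 4 for Apln, 8 for Adss, 5 for Rsph3b, 7 for Ide, 9 for Kctd15 and 7 for Rnaset2a. The highest adjusted p came without Ahr flox replicate 3 for Lif (0.176), Apln (0.146), Rsph3b (0.169), Ide (0.217) and Rnaset2a (0.222), without Ahr flox replicate 1 for Adss (0.166) and without Ahr flox replicate 2 for Kctd15 (0.155).

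mt-Nd3, a complex I subunit gene of the mitochondrial genome, was lower in Ahr flox, with 156.6, 115.9 and 157.2 CPM in Hif1a Ahr flox, 17.9, 28.0 and 20.8 CPM in Ahr flox and 130.3, 128.4 and 87.9 CPM in Hif1a flox libraries. The difference Hif1a Ahr flox minus Ahr flox was 2.69 ± 0.22 (adjusted p = 0.00177), and 0.0817 with the replicate number as a block shared by these 2 lines. Ahr flox minus Hif1a flox was -2.38 ± 0.22 (adjusted p = 0.00342; 0.0685 with that block and 0.0508 with no filter on low counts). The nuclear gene Gm28438 holds 98.1% of the words of mt-Nd3 and averaged 109.5 CPM in Hif1a Ahr flox, 240.5 CPM in Ahr flox and 127.7 CPM in Hif1a flox. Summed over the pair the means were 252.8, 262.7 and 243.2 CPM in the lines as listed, and the libraries of the 3 lines overlapped.

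**Figure D5:**
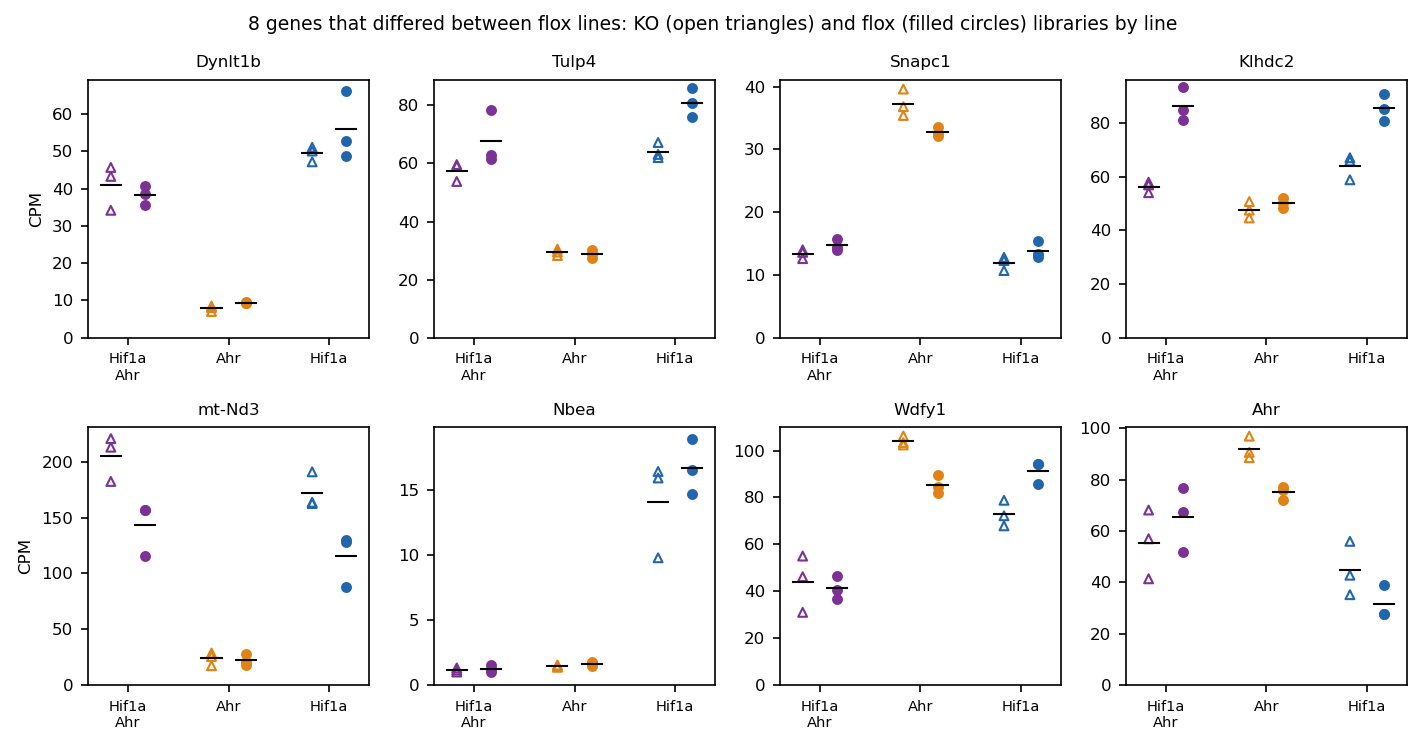
CPM of 8 genes called between flox lines, by line (Hif1a Ahr, Ahr, Hif1a), in KO libraries (open triangles, left) and flox libraries (filled circles, right), with bars for means. Dynlt1b and Snapc1 keep the Ahr line apart in KO and flox libraries alike.

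The KO libraries, which the tests above did not use, were read for some of these genes. Dynlt1b had 34.2 to 45.7 CPM in Hif1a Ahr KO, 7.05 to 8.49 CPM in Ahr KO and 47.2 to 51.1 CPM in Hif1a KO libraries. Snapc1 had 12.6 to 14.0 CPM in Hif1a Ahr KO, 35.4 to 39.6 CPM in Ahr KO and 10.7 to 12.8 CPM in Hif1a KO libraries. Nbea had 0.997 to 1.31 CPM in Hif1a Ahr KO, 1.36 to 1.53 CPM in Ahr KO and 9.77 to 16.4 CPM in Hif1a KO libraries. For these 3 genes the line that stood apart was the same as among flox libraries. Wdfy1 had 31 to 55.0 CPM in Hif1a Ahr KO, 102.4 to 106.2 CPM in Ahr KO and 67.9 to 78.8 CPM in Hif1a KO libraries, again lowest in the Hif1a Ahr line. Nnt overlapped between all lines, with 42.2, 22.7 and 27.8 CPM in Hif1a Ahr KO, 17.4, 30.1 and 25.7 CPM in Ahr KO and 33.0, 38.9 and 23.1 CPM in Hif1a KO libraries. Cdh1 had 20.1 to 46.9 CPM in Hif1a Ahr KO, 470.5 to 542.1 CPM in Ahr KO and 23.3 to 56.3 CPM in Hif1a KO libraries, so Ahr KO stood apart there. Among flox libraries the Hif1a Ahr line was lowest, with 263.3, 287.2 and 278.2 CPM in Hif1a flox. The difference Hif1a Ahr flox minus Hif1a flox was not called (-0.56 ± 0.09, adjusted p = 0.165). Line and deletion are confounded in those libraries, so no test was made.

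Replicates within a line also differed from each other. Xist, the RNA that coats an inactive X chromosome in female cells, ranged from 91.2 to 425.2 CPM over the 9 libraries. The summed level of the Y-linked genes Ddx3y, Eif2s3y, Kdm5d and Uty, which only male cells carry, ranged from 48.6 to 170.0 CPM. Every library held both. The levels ran opposite ways (Pearson r = -0.96, exact permutation p = 0.000218; Spearman rho = -0.93, exact permutation p = 0.00075; BH adjusted p = 0.000871 over 4 relations; r = -0.94 without the 2 libraries farthest from the median). The lines overlapped in both levels. On the first principal component (34.5% of the variance) the Hif1a Ahr flox libraries overlapped both other lines, while the Ahr flox libraries (-15.96, 2.56 and -9.88) lay below the Hif1a flox libraries (10.38, 2.99 and 15.88), the nearest pair by a small gap. On the second (22.2%) the Ahr flox libraries (-10.81, -12.85 and -7.57) lay below the other 6, which ran from -1.59 to 15.64.

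Of genes at 50 CPM or more, the metallothionein genes and Xcl1 were among the 10 most variable within lines. Mt1 had 228.5, 58.8 and 96.8 CPM in Hif1a Ahr flox, 74.5, 404.5 and 98.7 CPM in Ahr flox and 71.5, 72.1 and 53.3 CPM in Hif1a flox libraries. Mt2 was high in the same libraries, at 161.1 CPM in Hif1a Ahr flox replicate 1 and 306.8 CPM in Ahr flox replicate 2. Xcl1, a chemokine for cross-presenting dendritic cells, ran from 61.8 to 412.8 CPM, and its highest value was that of Hif1a Ahr flox replicate 3. Gm5537 and Gm10925, also among the 10, share all of their words with Pgk1 and mt-Atp6.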

How the data were processed

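RNA sequencing of 9 flox libraries was analysed. The labels name a strand-specific mRNA protocol; Trim Galore 0.6.4, kallisto 0.4.6, edgeR 3.17 and the GRCm39 build are named in the submitters' processing notes, with settings not given in the sources used here. The deposited estimated counts per gene were tested unrounded (65.7% to 67.3% of values above 0 are not whole, tolerance 1e-06); rounding them first was an added alternative, and DESeq2 used rounded counts. The deposited CPM files hold log2 CPM, recomputed here with prior count 2 to within 7.1e-15, and were not used further. Genes without a symbol, 4924 of 56953, held 0.327% of flox counts and were tested but not named.

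Tests used R 4.3.3 and edgeR 4.0.16: TMM, filterByExpr, 1 mean per line, robust quasi-likelihood F tests (common BCV 0.124, 6 residual degrees of freedom), Benjamini-Hochberg over 15950 genes, threshold 0.05. Errors beside log2 differences are standard errors, derived from each F statistic. limma 3.58.1 (voom) and DESeq2 1.42.0 were alternatives. The main script was tested on simulated data. Lengths, chromosomes and gene order came from GENCODE on GRCm38 and promoters from RefSeq on GRCm38.p6; no coordinates were converted. 31-base words were counted over GENCODE transcripts, and replaced the planned comparison of granzyme proteins.

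Replicate pairing was checked by correlating libraries' deviations from their line means (genes of at least 5 CPM). Same-numbered Hif1a Ahr flox and Ahr flox libraries correlated at 0.19, 0.41 and 0.35, all above 0.1, and same-numbered pairs with Hif1a flox at -0.24 to -0.64. Unlike-numbered libraries of different lines correlated at -0.3 to 0.49. The highest of these was Hif1a Ahr flox replicate 2 with Hif1a flox replicate 3. Replicates are biological per the labels; the chi-square per degree of freedom between replicates was 17.3 to 65.6. Depth was 54731932 to 55732940 counts; counting limits cover counting error only. Named genes were the 30 highest by mean CPM, the 10 highest per kilobase, up to 8 called genes per direction and comparison (mean of at least 1 CPM, no overlap, informative symbol), called list members, the 10 most variable genes and checks. Members and lists were chosen with earlier results of these data known. Values of some list members are not reported here.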

Additional observations from a re-analysis of the deposited data

How the results depend on the processing

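Call counts for the 3-line test, Hif1a Ahr flox minus Ahr flox, Hif1a Ahr flox minus Hif1a flox, and Ahr flox minus Hif1a flox were 30, 27, 4 and 24. They became 69, 54, 8 and 44 with no filter on low counts and 132, 89, 23 and 79 with DESeq2. With the replicate number as a block in all lines they were 22, 17, 2 and 17, although the numbers do not pair Hif1a flox libraries; with a block shared by Hif1a Ahr flox and Ahr flox only, an alternative chosen after seeing the data, they were 81, 40, 15 and 119. All 18 libraries in the fit gave 42 calls for Ahr flox minus Hif1a flox. Leaving out 1 library gave 20 to 38, 14 to 26, 2 to 6 and 16 to 30. The cause of these shifts was not tested. Of the 30 highest nuclear genes, 18 were among the 30 highest per kilobase. Rounding counts first, also chosen after seeing the data, called the same 30, 27, 4 and 24 genes. Without 1 library the exact permutation p for the share of ribosomal protein genes (0.168 with all 9) lay between 0.0321, without Hif1a Ahr flox replicate 1 (adjusted p = 0.257), and 0.332. For the MHC class I share (0.55 with all 9) it lay between 0.0464, without Hif1a Ahr flox replicate 2 (adjusted p = 0.371), and 0.979. No called gene followed through these alternatives changed sign, and signs of differences that were not called were not compared. At this depth, a count of 0 over a line allows up to 0.0181 CPM for a gene that shares no words with other transcripts. Replicates differed by far more than counting error.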

Other observations

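Levels of AhR-responsive genes and of granule genes differed between replicates within lines in a way chosen after the values were seen. Hif1a Ahr flox replicate 2 and Ahr flox replicate 2 had the highest Prf1 of their lines (3802 and 3676 CPM) and the lowest Ahrr (30.5 and 32.4 CPM), Hic1 (32.9 and 33.9 CPM) and Asb2 (192.7 and 215.9 CPM). In Hif1a flox, replicate 2 had the lowest Prf1 (2729 CPM) and the highest Ahrr (44.3 CPM), Hic1 (44.7 CPM) and Asb2 (171.7 CPM). Gzmd followed Prf1, with 7114, 5221 and 4856 CPM in those libraries. No test was made of this pattern.

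Of the called genes that could not be named, the one that differed most had 17 to 23.5 CPM in Hif1a Ahr flox libraries, 0.431, 0.652 and 0.707 CPM in Ahr flox libraries and at least 28.7 CPM in each Hif1a flox library.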
